A study of Mus musculus with 2 samples.

Results

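The laminin and integrin genes were taken as the nuclear protein-coding genes whose symbols begin with Lama, Lamb, Lamc, Itga or Itgb, leaving out 4 genes with such symbols that encode no subunit (Itgb1bp1, Itgb1bp2, Itgb3bp and Itgbl1). The rule gave 38 of 21461 nuclear protein-coding genes, and all 38 were found in both tables of gene values: 11 laminin genes, 18 integrin alpha genes and 9 integrin beta genes. The study measured RNA in the forebrain of mouse embryos of strain B6NCrl, a C57BL/6 substrain, at embryonic day 14.5. There was 1 group of 2 libraries, biological replicates 2 and 1, each described in the labels as the forebrain of a single pup and collected on different days. The labels give both samples the same donor identifier and call the sex pooled male and female, which does not go with a single pup, and no genetic change or treatment is given. With 1 group there was no comparison of conditions, so the comparisons were those between subunits within each library, between transcripts of a gene, and between the 2 embryos, replicate 2 over replicate 1.

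Laminins are secreted trimers of an alpha, a beta and a gamma chain, and they are the sheet-forming proteins of basement membranes. In the embryonic brain such membranes lie under the meninges, where the end-feet of radial glia attach, and around blood vessels. Integrins are cell surface receptors made of an alpha and a beta subunit, which bind laminins, collagens, fibronectin and other matrix proteins outside the cell and link to actin inside it. The alpha subunit largely sets the ligand, and the beta subunit Itgb1 pairs with most of the alpha subunits.

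Of the 38 genes, 20 had a level of 1 TPM or more in both libraries, here called detected, against 59.6% of all nuclear protein-coding genes. TPM is a transcript level divided by transcript length and scaled to a constant sum in each library. The median level of the 38 genes was 1.31 on the log2(TPM + 1) scale, below the 2.38 of all nuclear protein-coding genes. A protein-coding transcript is called incomplete here when the annotation marks an end of the transcript or of its coding sequence as not found, and complete otherwise. Values in complete transcripts are given where they move a result, and pairs in them were called by a ratio of 2-fold or more in both libraries. Detected were 8 of 11 laminin genes, 9 of 18 integrin alpha genes and 3 of 9 integrin beta genes. Together the 38 genes held 18090 of 29250404 expected counts in replicate 2 and 19616 of 35310017 in replicate 1, where expected counts are estimated read numbers.

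**Figure D1:**
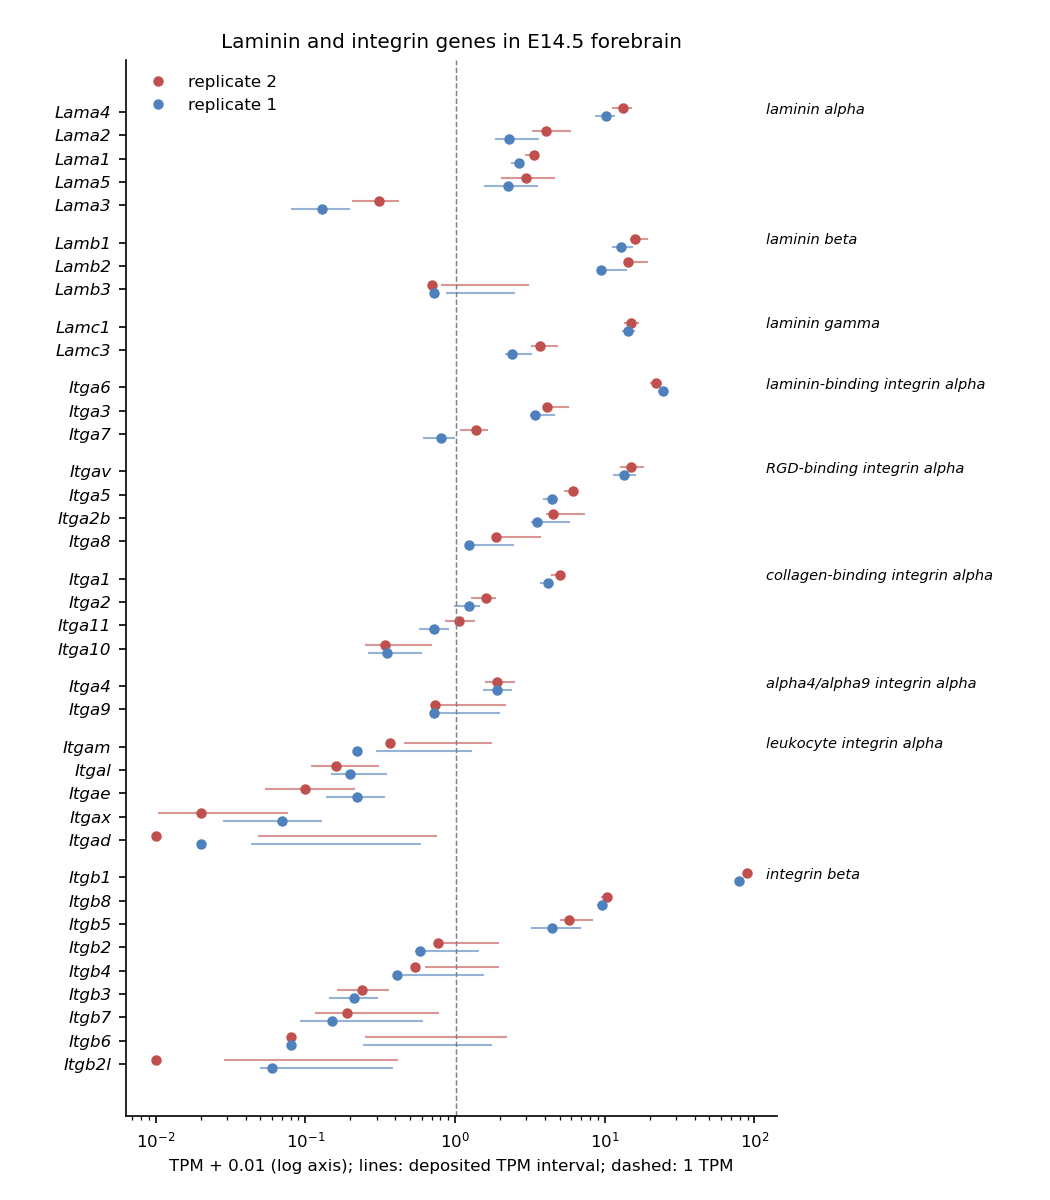
TPM of laminin and integrin genes in replicate 2 (red) and replicate 1 (blue), on a log axis after adding 0.01, with the deposited interval of each value as a line and 1 TPM as a dashed line. Itgb1 stood highest, 20 genes lay at or right of the dashed line in both libraries, and the TPM of several low genes lay outside its own interval.

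Among laminin alpha chains, which carry the domains that integrins and dystroglycan bind, Lama4 led. Lama4, the alpha chain of vessel wall laminins (chr10:38965515-39110188, mm10), had 13.2 TPM in replicate 2 and 10.2 TPM in replicate 1. Lama2, the alpha chain of muscle and of brain vessel laminins, had 4.02 TPM in replicate 2 and 2.30 TPM in replicate 1. Lama1, an alpha chain of early embryonic and pial basement membranes, had 3.36 TPM in replicate 2 and 2.66 TPM in replicate 1. Lama4 thus held 55.4% of the alpha chain TPM in replicate 2 and 58.0% in replicate 1, and it lay above the other alpha genes in both libraries. Lama5, the alpha chain of many epithelial and mature vessel basement membranes, had 2.98 TPM in replicate 2 and 2.26 TPM in replicate 1. The log2 ratio of Lama4 over Lama2 was 1.93 ± 0.30 and that of Lama4 over Lama5 2.16 ± 0.01 (SD, n = 2 libraries, as in all later ratios), and in both pairs the deposited TPM intervals lay apart in both libraries. Pairs that met this rule are called separated below. In complete transcripts these ratios were larger, at 2.54 for Lama4 over Lama2 and 3.70 for Lama4 over Lama5. Lama1 was separated neither from Lama2, at a log2 ratio of -0.02 ± 0.33, nor from Lama5, where Lama5 over Lama1 was -0.20 ± 0.04. Both results depended on the transcripts counted: in complete transcripts Lama5 over Lama1 was -2.17, which met the 2-fold rule, and Lama1 over Lama2 was 1.01, which did not. From counts not divided by length they were -1.76 and 0.81, with Poisson intervals apart in both.

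Among beta chains, Lamb1 and Lamb2 were close to each other in gene TPM. Lamb1, the beta chain of early embryonic basement membranes (chr12:31265234-31329644), had 15.9 TPM in replicate 2 and 12.8 TPM in replicate 1. Lamb2, the beta chain of synaptic, kidney and pial basement membranes (chr9:108479736-108490530), had 14.4 TPM in replicate 2 and 9.43 TPM in replicate 1. Lamb1 held 53.5 ± 3.11% of the beta chain TPM, and its log2 ratio over Lamb2 was 0.29 ± 0.21, with intervals that overlapped. In complete transcripts the ratio was 0.58, which did not meet the 2-fold rule. From counts not divided by length it was 0.65, with Poisson intervals apart in both libraries. Lamb3, the beta chain of the laminin that anchors skin epithelium, had 0.69 TPM in replicate 2 and 0.71 TPM in replicate 1.

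The gamma chains were led by Lamc1, which takes part in most laminin trimers. Lamc1 (chr1:153218922-153332786) had 15.1 TPM in replicate 2 and 14.4 TPM in replicate 1. Lamc3, a gamma chain whose loss together with Lamb2 disturbs cortical layering in mice, had 3.70 TPM in replicate 2 and 2.41 TPM in replicate 1. Lamc1 held 79.5 ± 4.68% of the gamma chain TPM and was separated from Lamc3, with a log2 ratio of 2.30 ± 0.39, or 1.33 in complete transcripts. Lama3, an alpha chain of epithelial basement membranes, had 0.30 TPM in replicate 2 and 0.12 TPM in replicate 1. The surface epithelium markers were low: 5 genes together reached 4.82 TPM in replicate 2 and 3.09 TPM in replicate 1. Cdh1 gave 2.77 TPM of this in replicate 2 and 1.56 TPM in replicate 1, and Epcam gave 1.78 TPM in replicate 2 and 1.44 TPM in replicate 1.

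Ordered by mean TPM, the 8 detected laminin genes were Lamc1, Lamb1, Lamb2, Lama4, Lama2, Lamc3, Lama1 and Lama5. Of the 7 steps between neighbours in this order, only that of Lama4 over Lama2 was separated. The laminin genes thus formed an upper set with 1 alpha, both common beta chains and 1 gamma, at 9.43 to 15.9 TPM in single libraries, and a lower set at 2.26 to 4.02 TPM. The order within the upper set changed in complete transcripts. There Lamb1 led with a mean of 12.0 TPM, before Lama4 at 8.8, Lamb2 at 8.1 and Lamc1 at 7.4 TPM.

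The integrin beta pool was dominated by Itgb1. This subunit, the partner of the laminin-binding, collagen-binding and several other alpha chains (chr8:128685654-128733200), had 89.8 TPM from 5870 expected counts in replicate 2 and 79.2 TPM from 6731 in replicate 1. Itgb1 held 83.5 ± 0.209% of all integrin beta TPM, the share with the smallest spread of the 3 pools given here. Itgb8 (chr12:119158022-119238802), which pairs with Itgav, activates latent TGF-beta and is needed for brain vessel integrity in mice, had 10.4 TPM in replicate 2 and 9.62 TPM in replicate 1. Itgb5, a vitronectin-binding partner of Itgav (chr16:33829665-33949338), had 5.74 TPM in replicate 2 and 4.42 TPM in replicate 1. Itgb5 was separated from both: the log2 ratio of Itgb1 over Itgb5 was 4.07 ± 0.14, and that of Itgb8 over Itgb5 0.99 ± 0.19. In complete transcripts Itgb8 over Itgb5 was 1.30, but only 0.88 in replicate 2 against 1.71 in replicate 1, so the pair did not meet the 2-fold rule there.

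The other 6 beta genes were not detected. The highest was Itgb2, the beta chain of leukocyte integrins, with 0.76 TPM in replicate 2 and 0.57 TPM in replicate 1. Itgb4, which with Itga6 forms the hemidesmosome receptor of epithelia, had 0.53 TPM in replicate 2 and 0.40 TPM in replicate 1. The log2 ratio of Itgb1 over Itgb4 was 7.52 ± 0.16, so among the beta partners of Itga6 the transcript of Itgb1 was the more abundant. Itgb3, the platelet fibrinogen receptor chain and another partner of Itgav, had 0.23 TPM in replicate 2 and 0.20 TPM in replicate 1, and Itgb8 over Itgb3 gave 5.54 ± 0.06. Itgb7 and Itgb6 had at most 0.18 TPM in either library, and Itgb2l had 0 expected counts in replicate 2 and 3 in replicate 1. At an effective length of 1 kb, a count of 0 allows up to 0.17 TPM in replicate 2 and 0.131 TPM in replicate 1, from a floor of 3 counts that covers counting error only.

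Among alpha subunits, the laminin receptor chain Itga6 stood highest. Itga6 (chr2:71745616-71858416) had 22.1 TPM in replicate 2 and 24.6 TPM in replicate 1. Itga3, a laminin receptor chain that cortical neurons and radial glia use in mice (chr11:95044474-95076801), had 4.12 TPM in replicate 2 and 3.44 TPM in replicate 1. Itga7, the laminin receptor chain of muscle, had 1.38 TPM in replicate 2 and 0.80 TPM in replicate 1, under 1 TPM in replicate 1. Itga6 over Itga3 was 2.63 ± 0.30 on the log2 scale and Itga6 over Itga7 was 4.47 ± 0.67, and both were separated. In complete transcripts they were smaller, at 1.34 and 3.17, and both met the 2-fold rule. Itga6 was one of 2 members with a mean TPM of 1 or more whose level was not higher in replicate 2.

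The subunits that recognise the RGD motif of fibronectin, vitronectin and latent TGF-beta were all detected by gene TPM, but Itga2b was not in complete transcripts. Itgav (chr2:83724397-83806916), the alpha chain that pairs with several beta subunits including Itgb8 and Itgb5, had 15.1 TPM in replicate 2 and 13.5 TPM in replicate 1. Itga5 (chr15:103344286-103366763), the fibronectin receptor chain, had 6.18 TPM in replicate 2 and 4.45 TPM in replicate 1. Itga8, a nephronectin receptor chain, had 1.87 TPM in replicate 2 and 1.24 TPM in replicate 1. Gene-level Itgav was separated from Itga5 at a log2 ratio of 1.44 ± 0.22 and from Itga8 at 3.22 ± 0.31. In complete transcripts the first turned round to -0.36 and the other was 1.59. Itga2b, the platelet integrin alpha chain, had 4.49 TPM in replicate 2 and 3.52 TPM in replicate 1, though from only 71 expected counts in replicate 2 and 74 in replicate 1. Its complete transcript had 0.50 TPM in replicate 2 and 0.34 TPM in replicate 1. Beside it, the 6 markers of megakaryocytes and platelets summed to 42.1 TPM in replicate 2 and 34.1 TPM in replicate 1. Pf4 gave 40.2 TPM in replicate 2 and 32.8 TPM in replicate 1, Ppbp stood at 0.81 TPM in replicate 2 and 0.71 TPM in replicate 1, and Gp6 had no count in either. Their part in the level of Itga2b was not tested.

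Of the 4 collagen-binding alpha genes, 2 were detected. Itga1, which binds type IV collagen of basement membranes, had 5.00 TPM in replicate 2 and 4.16 TPM in replicate 1. Itga2, its neighbour on chromosome 13 at a distance of 20995 nt, had 1.60 TPM in replicate 2 and 1.23 TPM in replicate 1. Their log2 ratio was 1.70 ± 0.08, and they were separated. The span of Itga1 overlaps that of Pelo, a ribosome rescue gene on the same strand, at 6.35 TPM in replicate 2 and 6.40 TPM in replicate 1. Whether the 2 genes share exons was not examined. Their expected counts were whole numbers, 518 for Itga1 and 168 for Pelo in replicate 2, and 560 and 220 in replicate 1. Itga11, a fibrillar collagen receptor of mesenchymal cells, had 1.05 TPM in replicate 2 and 0.71 TPM in replicate 1, and Itga10, a cartilage collagen receptor, had 0.33 TPM in replicate 2 and 0.34 TPM in replicate 1.

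Itga4, a receptor for VCAM-1 and fibronectin, had 1.89 TPM in both libraries. Itga9, a tenascin and osteopontin receptor, had 0.72 TPM in replicate 2 and 0.71 TPM in replicate 1. The log2 ratio of Itga4 over Itga9 was 1.40 ± 0.01, but the 2 genes were not separated by the deposited intervals. The TPM of Itga9 lay outside its own interval in both libraries. With Poisson intervals of the counts the 2 genes lay apart. In complete transcripts the ratio was 0.84, which did not meet the 2-fold rule. Itga9 overlaps an antisense gene, Gm2415, with 68 expected counts in replicate 2 and 79 in replicate 1 while Itga9 itself had 64 in replicate 2 and 89 in replicate 1. Shared exons were not looked for in this pair either, and whether counting used the strand is not given in the sources used here. Reads of any such exons may therefore not be told apart.

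The 5 leukocyte alpha genes (Itgal, Itgam, Itgax, Itgad and Itgae) summed to 0.61 TPM in replicate 2 and 0.68 TPM in replicate 1, and none was detected. Itgam, the alpha chain of complement receptor 3 on microglia and neutrophils, was the highest by mean, with 0.36 TPM in replicate 2 and 0.21 TPM in replicate 1. Itgae also had 0.21 TPM in replicate 1, and the TPM of Itgam lay outside its own interval in both libraries. In complete transcripts Itgam had 0.16 TPM in replicate 2 and 0.08 TPM in replicate 1. Itgal then had 0.15 TPM in replicate 2 and 0.19 TPM in replicate 1. Itgad had 0 counts in replicate 2 and 1 in replicate 1. Transcripts of microglia were nevertheless present: the 7 markers of microglia and macrophages summed to 120 TPM in replicate 2 and 109 TPM in replicate 1, led by C1qb at 38.5 TPM in replicate 2 and 38.1 TPM in replicate 1. Of 6 lymphocyte markers, only Lck was detected, with 7.72 TPM in replicate 2 and 6.76 TPM in replicate 1, while Cd3e and Cd8a had no count. In bulk tissue, fewer cells of a type and less RNA per cell cannot be told apart.

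In the order of the 12 detected integrin genes, 5 of 11 steps between neighbours were separated. These were Itgb1 over Itga6, Itga6 over Itgav, Itgav over Itgb8, Itgb8 over Itga5, and Itga3 over Itga4. Itga5, Itgb5, Itga1, Itga2b and Itga3 followed each other with no separated step, and so did Itga4, Itga8 and Itga2. Over the 20 subunit pairs set side by side, 14 were separated. Of 38 members, 8 had a TPM outside its own deposited interval in at least 1 library, of which only Itga8 was detected. The same share over all nuclear protein-coding genes was not computed, so this count is not read as a trait of the members.

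The gene levels rested on very unequal transcript models. Among the 10 members with a mean TPM of 5 or more, 3 had less than 50% of their TPM in complete protein-coding transcripts, against 11.2% of all nuclear protein-coding genes at that level. The median share was 74.4% for these 10 members and 96.4% for all such genes. The 3 genes were Itga6, Lamc1 and Itgav, by the mean of both libraries. Lamc1 lay on both sides of 50%, with 54.6% in replicate 2 and 45.0% in replicate 1. Itgb1 differed from them, with 99.5% of its TPM in replicate 2 and 99.7% in replicate 1 in a single complete transcript of 3815 nt.

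For Itgav, a 463-nt incomplete model at the 3′ end of the gene (chr2:83802921-83806916), held 69.3% of the TPM in replicate 2 and 69.4% in replicate 1. It held only 11.3% of the gene's expected counts in replicate 2 and 11.5% in replicate 1, because TPM divides by an effective length of 364 nt. The complete transcripts of Itgav summed to 4.35 TPM in replicate 2 and 3.82 TPM in replicate 1. Itga5 lay in complete transcripts entirely, so on this measure Itgav over Itga5 was -0.36 on the log2 scale in place of 1.44. In Lamc1, a 1447-nt incomplete model that shares the 3′ end of the gene (chr1:153218922-153229144) held 45.4% of the Lamc1 TPM in replicate 2 and 53.4% in replicate 1. Its shares of the counts were 13.0% in replicate 2 and 17.5% in replicate 1, and the complete Lamc1 transcript had 8.23 TPM in replicate 2 and 6.48 TPM in replicate 1.

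For Itga6, the model with the largest share was a 2721-nt model annotated without a coding sequence (chr2:71849029-71858416). It held 46.2% of the TPM in replicate 2 and 48.8% in replicate 1, and here the counts went with the TPM, at 39.9% in replicate 2 and 42.6% in replicate 1. Its 3′ end lies at least 1645 nt past those of both complete Itga6 transcripts. The complete transcripts of Itga6 summed to 9.09 TPM in replicate 2 and 9.82 TPM in replicate 1.

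Among lower members, Lama5 had 0.79 TPM in replicate 2 and 0.56 TPM in replicate 1 in its complete transcript, which held 90.3% of its counts in replicate 2 and 89.3% in replicate 1. Short models of Lama5 thus carried most of its TPM on few reads. Lama2 had 1.80 TPM in replicate 2 and 1.23 TPM in replicate 1 in complete transcripts. On this measure 18 of 38 members were detected, against 57.5% of all nuclear protein-coding genes, and Itga2b and Lama5 were the members no longer detected. After Itgb1, Lamb1 then stood at place 2, with 14.1 TPM in replicate 2 and 9.83 TPM in replicate 1, Itga6 at place 3 and Itgb8 at place 4, with 9.08 TPM in replicate 2 and 9.06 TPM in replicate 1. Itgav moved from place 5 to place 10 of the 20 detected genes, and Lamc1 from place 3 to place 7.

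**Figure D2:**
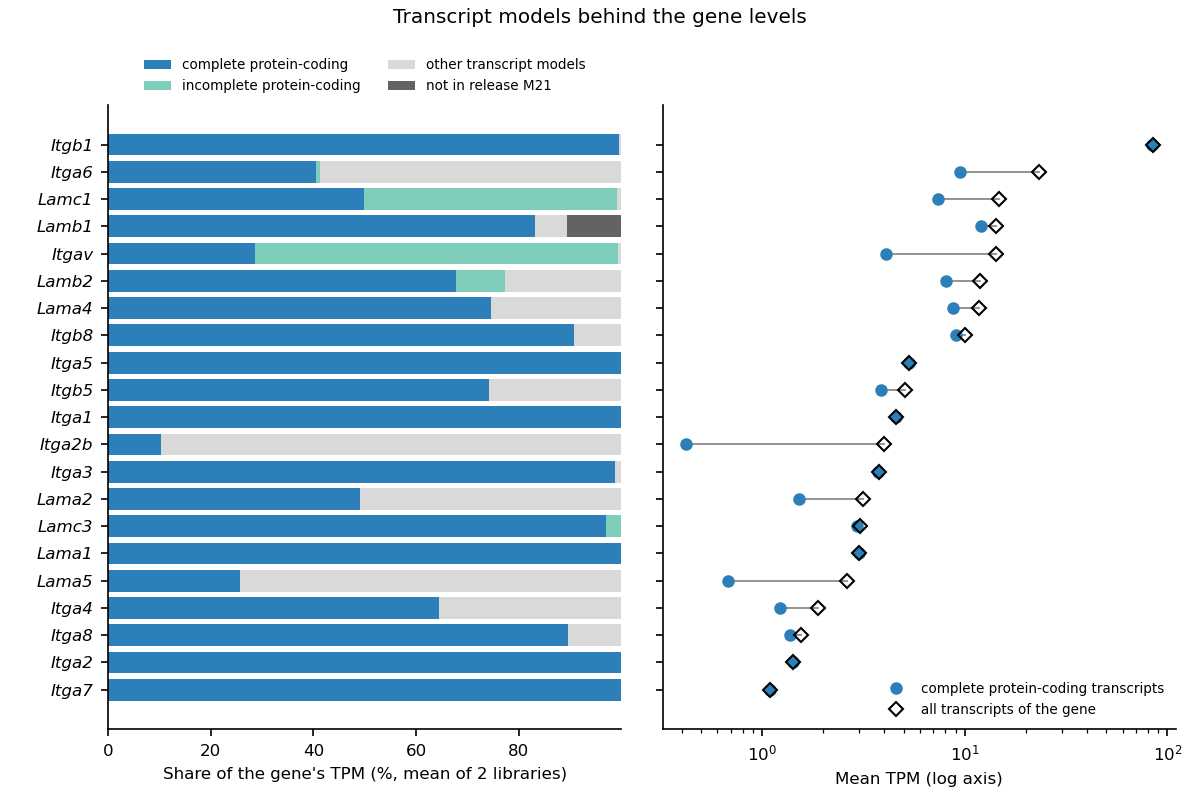
Left, share of each gene's TPM held by complete protein-coding, incomplete protein-coding and other transcript models (percent, mean of 2 libraries) for the 21 members with a mean TPM of 1 or more. Right, mean TPM of complete protein-coding transcripts (filled) and of the whole gene (open) on a log axis. Itgav, Itga6, Lamc1, Itga2b, Lama2 and Lama5 had less than 50% of their TPM in complete transcripts on this mean.

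Itga6 and Itga3 each end in one of 2 cytoplasmic tails, called A and B, chosen by alternative splicing: the A form keeps an exon that holds its own stop codon, and the B form skips it and reads on in the next. The tail lies inside the cell, where integrin adaptors bind. The coding ends are shown because the complete transcripts that carry them were present side by side, each sequence read 5′ to 3′ on the coding strand of GRCm38 (mm10) from GENCODE M21 transcripts, with the stop codon in capitals.
Itga6 A end: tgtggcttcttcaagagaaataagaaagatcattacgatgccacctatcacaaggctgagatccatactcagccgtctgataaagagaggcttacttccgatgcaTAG
Itga6 B end: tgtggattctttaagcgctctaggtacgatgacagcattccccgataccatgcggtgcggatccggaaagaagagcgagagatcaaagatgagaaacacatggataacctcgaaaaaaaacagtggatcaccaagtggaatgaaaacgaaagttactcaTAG
Itga3 A end: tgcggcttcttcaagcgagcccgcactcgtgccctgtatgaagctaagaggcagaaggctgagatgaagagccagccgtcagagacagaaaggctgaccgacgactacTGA
Itga3 B end: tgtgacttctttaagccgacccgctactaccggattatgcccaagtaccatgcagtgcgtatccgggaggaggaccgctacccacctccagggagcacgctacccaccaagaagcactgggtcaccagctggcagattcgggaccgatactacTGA

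The Itga6 A end lies at chr2:71853534-71853641 and its B end at chr2:71855854-71856015, both on the plus strand. The Itga3 A end lies at chr11:95046480-95046590 and its B end at chr11:95045608-95045763, both on the minus strand. Without the stop codon, the ends are 105 nt (A) and 159 nt (B) in Itga6, and 108 nt (A) and 153 nt (B) in Itga3. Aligned over the coding bases, the 2 A ends were identical at 65 of 108 columns (60.2%) and the 2 B ends at 92 of 159 columns (57.9%).

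The A and B forms were of similar abundance in both genes. The complete A form of Itga6, of 4310 nt, had 4.36 TPM in both libraries, and its complete B form, of 4156 nt, had 4.73 TPM in replicate 2 and 5.46 TPM in replicate 1. The A share of the complete Itga6 transcripts was 48.0% in replicate 2 and 44.4% in replicate 1, or 46.2 ± 2.52% (SD, n = 2). The A form of Itga3, of 4861 nt, had 2.41 TPM in replicate 2 and 1.70 TPM in replicate 1, and its B form, of 4697 nt, had 1.71 TPM in replicate 2 and 1.66 TPM in replicate 1. The A share of Itga3 was 58.5% in replicate 2 and 50.6% in replicate 1, or 54.5 ± 5.59%. For Itga6 the share depended on which models counted: the 2721-nt non-coding model also skips the A exon, so over all models that reach it, those that hold it had 4.52 TPM in both libraries and those that skip it 14.9 TPM in replicate 2 and 17.5 TPM in replicate 1. The A share was then 23.3% in replicate 2 and 20.6% in replicate 1.

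No member differed between the 2 embryos by a rule that asked for a mean TPM of 5 or more, a ratio of 2-fold or more and TPM intervals apart: 0 of 10 members met it, against 0.309% of 10368 nuclear protein-coding genes at that level. By direction, the shares of all such genes were 0.231% higher and 0.0772% lower in replicate 2. Without the 2-fold threshold, Itgb1 and Itga5 had intervals apart and were higher in replicate 2, that is 2 of 10 members against 39% of all such genes. Their TPM ratios, replicate 2 over replicate 1, were 1.13 for Itgb1 and 1.39 for Itga5. No member was lower in replicate 2 with intervals apart, against 8.18% of all such genes.

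Most members lay slightly higher in replicate 2. Of the 21 members with a mean TPM of 1 or more, 19 had a higher TPM in replicate 2, against 74% of all nuclear protein-coding genes at that level. The median log2 ratio of TPM + 1 was 0.28 for these members and 0.15 for all 13057 such genes, so the TPM scale itself favoured replicate 2. All 8 laminin genes were higher in replicate 2, with a median of 0.32, and 11 of 13 integrin genes were, with a median of 0.22. In gene TPM the largest laminin differences were those of Lama2 at 0.61 and Lamb2 at 0.56, and the smallest was that of Lamc1 at 0.06. This order did not hold in complete transcripts, where Lama2 was at 0.33, Lamb2 at 0.55, Lamc1 at 0.30 and Lama5 lowest at 0.20, nor with TMM factors, where Lamb2 at 0.42 and Lamc3 at 0.39 led. Itga6 was at -0.15 and Itga4 at 0.

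Scaling counts with edgeR TMM factors, which moved the median of all genes to -0.01, left all 8 laminin genes higher in replicate 2, at 0.08 to 0.42 with a median of 0.29. With TMM factors 10 of 13 integrin genes were higher, against 47.5% of all genes, and with DESeq2 size factors 9 of 13, against 46.5%. The direction of Itgb8 turned with the scaling, from 0.10 in TPM to -0.13 with TMM factors and -0.14 with DESeq2 size factors, and Itgb1 lay at 0.00 with both to 2 decimals. Itga6 was lower in replicate 2 on every scale, at -0.31 with TMM factors and -0.33 with DESeq2 size factors.

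**Figure D3:**
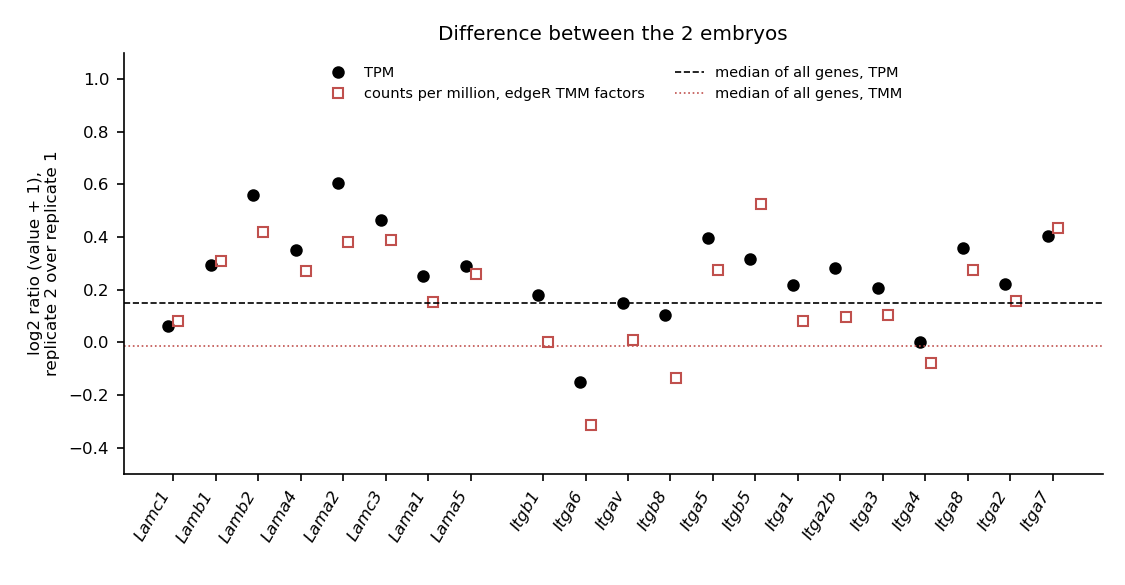
Log2 ratio of value + 1, replicate 2 over replicate 1, of the 21 members with a mean TPM of 1 or more, from TPM (filled circles) and from counts scaled with edgeR TMM factors (open squares); lines mark the medians of all nuclear protein-coding genes. All 8 laminin genes lay above 0 on both scales and Itga6 below 0 on both.

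Several marker lists moved in the same direction as the laminins. Medians below are of log2 ratios, replicate 2 over replicate 1, first in TPM and then with TMM factors. The 6 pericyte markers had a median of 0.44 in TPM and 0.36 with TMM factors, and summed to 53.5 TPM in replicate 2 and 39.8 TPM in replicate 1. All 6 were higher in replicate 2 in TPM, and 5 with TMM factors. Rgs5 led them, with 20.9 TPM in replicate 2 and 14.3 TPM in replicate 1, and Kcnj8 followed with 14.4 TPM in replicate 2 and 14.0 TPM in replicate 1. The 6 meningeal and fibroblast markers had a median of 0.39 in TPM and 0.31 with TMM factors, and summed to 325 TPM in replicate 2 and 236 TPM in replicate 1. Col3a1 led them with 137 TPM in replicate 2 and 102 TPM in replicate 1. Col1a1, named because it met the rule for a difference, had 35.5 TPM in replicate 2 and 17.1 TPM in replicate 1. Of the 6, 5 were higher in replicate 2 on both scales. Lum was lower in TPM, at 27.9 TPM in replicate 2 and 30.4 TPM in replicate 1. The 8 endothelial markers had a median of 0.23 in TPM and 0.08 with TMM factors, led by Cldn5 with 83.8 TPM in replicate 2 and 76.7 TPM in replicate 1. Of the 8, 7 were higher in replicate 2 in TPM and 5 with TMM factors. These counts are not read as a departure from the shares of all genes.

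The 7 radial glia markers were mixed: 3 were higher in replicate 2 in TPM and 1 with TMM factors, with a median of -0.16 in TPM and -0.30 with TMM factors, and they summed to 2104 TPM in both libraries. Fabp7 led them with 1336 TPM in replicate 2 and 1264 TPM in replicate 1, and Vim had 517 TPM in replicate 2 and 600 TPM in replicate 1. The 6 neuronal markers had a median of 0.22 in TPM and 0.04 with TMM factors, led by Tubb3 with 1666 TPM in replicate 2 and 1486 TPM in replicate 1. The 4 erythroid markers had a median of 0.47 in TPM and 0.32 with TMM factors, and the 6 choroid plexus markers -0.01 and -0.15. Schwann and neural crest markers had medians of 0.56 and 0.53, and surface epithelium markers 0.37 and 0.32. Each of these medians rests on the 2 genes of its list with a mean TPM of 1 or more. Markers of other tissues were low: 5 skeletal muscle genes summed to 3.11 TPM in replicate 2 and 3.76 TPM in replicate 1, 4 Schwann and neural crest genes to 9.60 TPM in replicate 2 and 5.84 TPM in replicate 1, and 6 neutrophil and monocyte precursor genes to 19.2 TPM in replicate 2 and 19.9 TPM in replicate 1. The part of these lists in the higher laminin levels of replicate 2 was not tested.

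The genes that work with laminins and integrins were examined as lists of 64 genes, of which 60 were detected and 0 differed between the embryos by the rule, against 59.6% and 0.309% of all nuclear protein-coding genes open to each. The 6 partners of laminin in basement membranes were all detected and all higher in replicate 2, with a median log2 ratio of 0.44 in TPM and 0.33 with TMM factors. The shares of all genes higher in replicate 2 were 74% in TPM and 47.5% with TMM factors. Agrn, the proteoglycan agrin, had 75.1 TPM in replicate 2 and 59.9 TPM in replicate 1. Col4a1, a chain of type IV collagen, had 65.0 TPM in replicate 2 and 47.4 TPM in replicate 1. Nid2, a nidogen that bridges laminin and collagen networks, had 29.4 TPM in replicate 2 and 18.7 TPM in replicate 1. The other 3 (Col4a2, Nid1 and Hspg2) lay between 3.33 and 23.1 TPM in single libraries.

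All 13 other laminin receptors and enzymes of matriglycan, the sugar chain by which dystroglycan binds laminin, were detected. Pomgnt1, an O-mannose glycan enzyme needed for functional dystroglycan, had 47.8 TPM in replicate 2 and 45.6 TPM in replicate 1. Sdc3, a neuronal syndecan, had 52.1 TPM in replicate 2 and 39.6 TPM in replicate 1. B4gat1, which primes matriglycan, had 48.2 TPM in replicate 2 and 38.5 TPM in replicate 1. Dag1, dystroglycan itself, named after its value was seen, had 41.6 TPM in replicate 2 and 34.4 TPM in replicate 1, so its gene level was above that of every integrin alpha gene and below that of Itgb1 in both libraries.

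Of 13 other integrin ligands and latent TGF-beta partners, 12 were detected. Vtn, vitronectin, had 104 TPM in replicate 2 and 74.4 TPM in replicate 1. Reln, the Cajal-Retzius cell protein reelin, had 45.4 TPM in replicate 2 and 49.0 TPM in replicate 1, and Vcam1, a ligand of Itga4 with Itgb1, 27.6 TPM in replicate 2 and 27.8 TPM in replicate 1. The ligand that was not detected was Tgfb1, with 0.71 TPM in replicate 2 and 0.51 TPM in replicate 1.

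Of 29 activators and adaptors at the inner face of integrins, 26 were detected. Ilk, the integrin-linked pseudokinase, had 196 TPM in replicate 2 and 190 TPM in replicate 1. Rap1b, a small GTPase that activates integrins, had 175 TPM in replicate 2 and 148 TPM in replicate 1, and Crk, a focal adhesion adaptor, 92.5 TPM in replicate 2 and 86.9 TPM in replicate 1. Of the 3 not detected, Fermt1, the kindlin of epithelia, had 0 counts in replicate 2 and 1 in replicate 1. All 3 tetraspanins that associate with integrins were detected, led by Cd81 with 293 TPM in replicate 2 and 285 TPM in replicate 1, with Cd9 at 72.9 TPM in replicate 2 and 64.7 TPM in replicate 1 and Cd151 at 42.7 TPM in replicate 2 and 43.1 TPM in replicate 1.

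**Figure D4:**
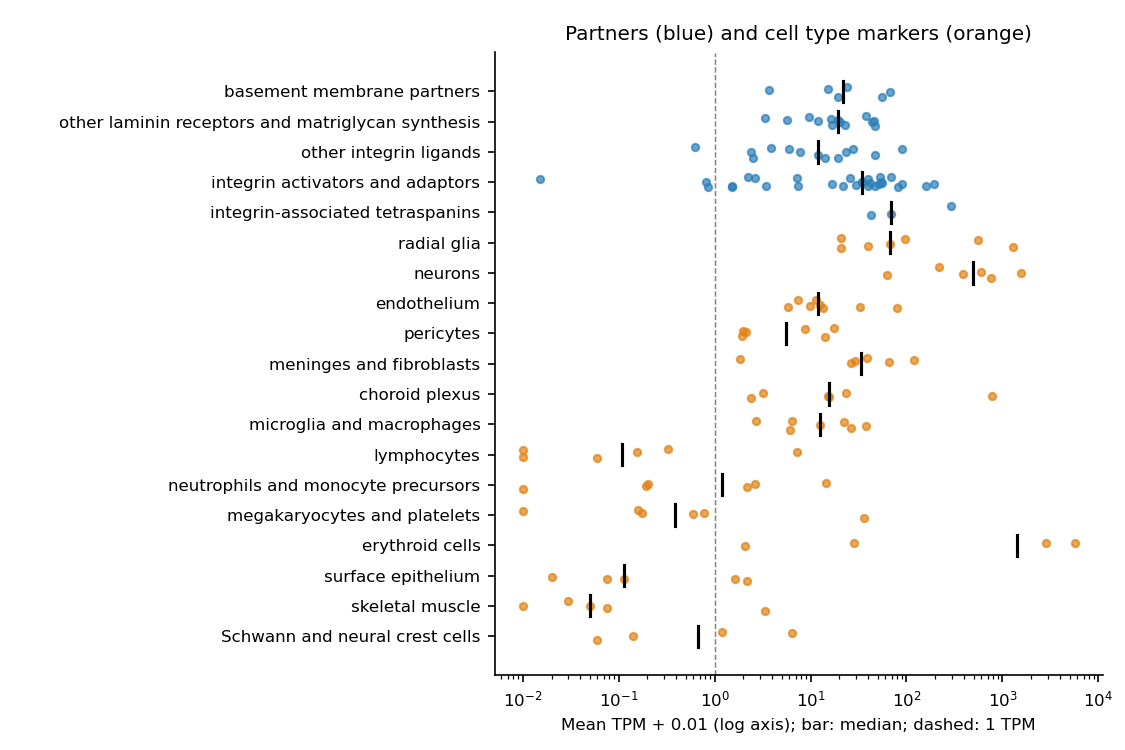
Mean TPM of 2 libraries, plus 0.01 on a log axis, of each gene in the partner lists (blue) and the cell type marker lists (orange), with the median of each list as a black bar and 1 TPM as a dashed line. The partner lists lay mostly above 1 TPM, with 60 of 64 genes detected, while the lymphocyte, platelet, surface epithelium, skeletal muscle and Schwann cell lists had medians below 1 TPM.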

How the data were processed

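Total RNA of 2 forebrains was measured by RNA-seq, with 10 ng of RNA over 200 nt and added spike-ins per library, per the labels, which also link a Smart-seq protocol, a poly(A)-primed method. The authors deposited expected counts, TPM and FPKM per gene and transcript, TPM intervals whose level is not stated, and for each transcript its percent of the TPM of its gene. The build was mm10 with GENCODE M4, per the file notes. The program, its version and the strand setting are not given in the sources used here. Effective lengths were 99 nt under the lengths. Names, transcript types and coordinates came from GENCODE M21, which matched 42462 of 43346 Ensembl genes (98.0%). Depth was 29250404 expected counts in replicate 2 and 35310017 in replicate 1.

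Levels were compared as TPM, log2(TPM + 1) or log2 ratios, with a gene under 3 counts set to the level of 3 counts in pair ratios. Means and SDs are over 2 libraries. The labels give different collection days but the same donor identifier, and do not state whether the litters were separate. With 1 group no conditions could be compared, and no test was made between subunits on 2 libraries. Expected counts were rounded for scaling factors (edgeR 4.0.16, DESeq2 1.42.0). Tables were handled with pandas 2.3.3, and tail ends were aligned with Biopython 1.88. The embryo rule was run on simulated counts with Poisson noise and changes larger than its 2-fold cut. It was thus not tested at that cut or with the deposited intervals. Members, lists and pairs were chosen with earlier results of these data known. All detected members were named, and of each list the genes with the highest means (up to 3 for partners, 2 for markers). Dag1, Cd3e, Cd8a, Gp6, Fermt1, Pelo, Gm2415, Col1a1, Lum and the tail sequences were chosen after values were seen. Alternatives covered thresholds, units, pseudocounts, scalings, intervals, transcript classes and leaving out a library. Protein sequences were not used here. The values of 1 member are not reported here, but all counts, sums and medians include it.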

Additional observations from a re-analysis of the deposited data

How the results depend on the processing

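The count of detected members ranged from 17 to 26 over 8 alternatives, and that of separated pairs from 14 to 19 over 7. The median level of 1.31 became 0.64 with a pseudocount of 0.1, 1.69 over members with a mean of 0.1 TPM or more, 0.94 in FPKM and 0.98 in complete transcripts. Members that differed between embryos numbered 2 of 10 without the fold threshold (Itgb1 and Itga5), against 47.2% of all genes open to it. Without the filter on low values they numbered 1 of 38 (Lama3), against 1.01% of all genes. The median embryo ratio of 0.28 became 0.17 without a filter and 0.16 with TMM factors. That of all genes moved with it, from 0.15 to 0.04 without a filter and -0.01 with TMM factors. The Lamb1 share of 53.5% became 49.3% from posterior mean TPM, 59.8% from counts and 58.1% in complete transcripts, and the Lamc1 share of 79.5% became 66.9% in complete transcripts. The Itgb1 share of 83.5% became 80.97% from posterior mean TPM, 76.5% from counts, and 85.4% in protein-coding or complete transcripts. The median share of TPM in protein-coding transcripts, 86.9% over 10 members, became 84.0% from posterior means and 74.4% for complete transcripts. Itgav over Itga5 reversed to -0.36 in complete transcripts, which leave out the short model that held most of its TPM. The complete-transcript alternatives were chosen after seeing the data. Each left-out library leaves 1, so such values have no spread. No paired analysis was possible because there is 1 group.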
